A study of Arabidopsis thaliana with 5 samples.

Results

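The genes described here are 6 genes of Arabidopsis thaliana under cold, dehydration or clock control: COR27 (AT5G42900), AT4G33980 (also called COR28, the name used below), COR15B (AT2G42530), COR47 (AT1G20440), LTI30 (AT3G50970) and GI (AT1G22770). They were taken from 13286 genes that could be named on the array, and were selected on the movement of their log2 values between single arrays of this series. That movement is given below as a description, without a test. Each of the 6 had 1 probe set, so every value below is that of a single probe set.

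RNA came from the secondary meristem of plants clipped at bolting, which imitates damage by a browsing mammal, and was collected on the following day. The groups were clipped plants of the ecotype Columbia (3 arrays) and clipped plants of the ecotype Landsberg erecta (2 arrays). By the design text, these ecotypes differ in how they compensate for damage. Clipping, a greenhouse with 16 h days and 8 h nights, and 3 days of cold given to the seeds before planting were common to both groups, and unclipped plants were not analysed here. The age of the plants and the number pooled for an array are not given in the sources used here. The arrays are labelled biological replicates without saying what was separate, so the tests below measure the spread between these arrays.

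In Arabidopsis, low temperature induces the CBF transcription factors, which switch on COR (cold-regulated) genes, and many of these genes also respond to drought and abscisic acid. The circadian clock gates this response, so that its strength depends on the time of day. COR27 and COR28 encode small related proteins that are induced by cold, follow the clock, and act back on clock genes and on light signalling. COR15B encodes a protein of the chloroplast stroma that protects membranes during freezing. COR47 and LTI30 encode dehydrins, hydrophilic proteins that protect membranes and proteins when cells lose water. GI (GIGANTEA) encodes a large clock protein that also sets the timing of flowering by day length.

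Each array gave a log2 expression value for 22746 probe sets, and array medians lay between 5.44 and 5.50. On each array, 24.4% to 25.1% of the probe sets held the common lowest value of 2.15, called the shared minimum below, where values have no order. An array was called apart for a probe set when its value lay outside the range of the other 4 arrays and at least 1 on the log2 scale (2-fold) from their median. Where more than 1 array qualified, the more distant one was taken. Columbia replicate 3 was apart for 288 probe sets, Columbia replicates 1 and 2 for 110 and 114, and Landsberg erecta replicates 1 and 2 for 13 and 51. With so few arrays, every comparison has low precision. The labelled tissue could be checked with few genes. Of the listed markers, 2 of 7 for the shoot meristem and 2 of 9 for green tissue could be named. CLV3 and LAS, markers of the shoot meristem and of axillary meristem formation, held the shared minimum of 2.15 on all 5 arrays. RCA and LHCB4.1, markers of green tissue, lay between 14.37 and 14.60 and between 13.59 and 13.89. These few genes do not settle which tissue was taken. Because whole tissue was measured, fewer cells of a type and less RNA per cell cannot be told apart.

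All 6 genes had their lowest value on Columbia replicate 2, and 5 of the 6 had their highest on Columbia replicate 3. GI was the exception at the upper end, with its highest value on Landsberg erecta replicate 2. Among all probe sets, 9.71% were lowest on Columbia replicate 2, 15.3% were highest on Columbia replicate 3 and 3.16% were both. The last share was 18.9% among the 1181 probe sets with a range of at least 1 over the 5 arrays. The genes differed in which of these arrays was the more distant. COR27, COR15B and GI stood apart on Columbia replicate 2, against 0.334% of all probe sets that did so with a lower value. COR28 and LTI30 stood apart on Columbia replicate 3, against 0.673% of all probe sets that did so with a higher value. COR47 stood apart on no array, as did 97.5% of all probe sets. Since the genes were selected on such movement, these shares are given for description only.

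**Figure D1:**
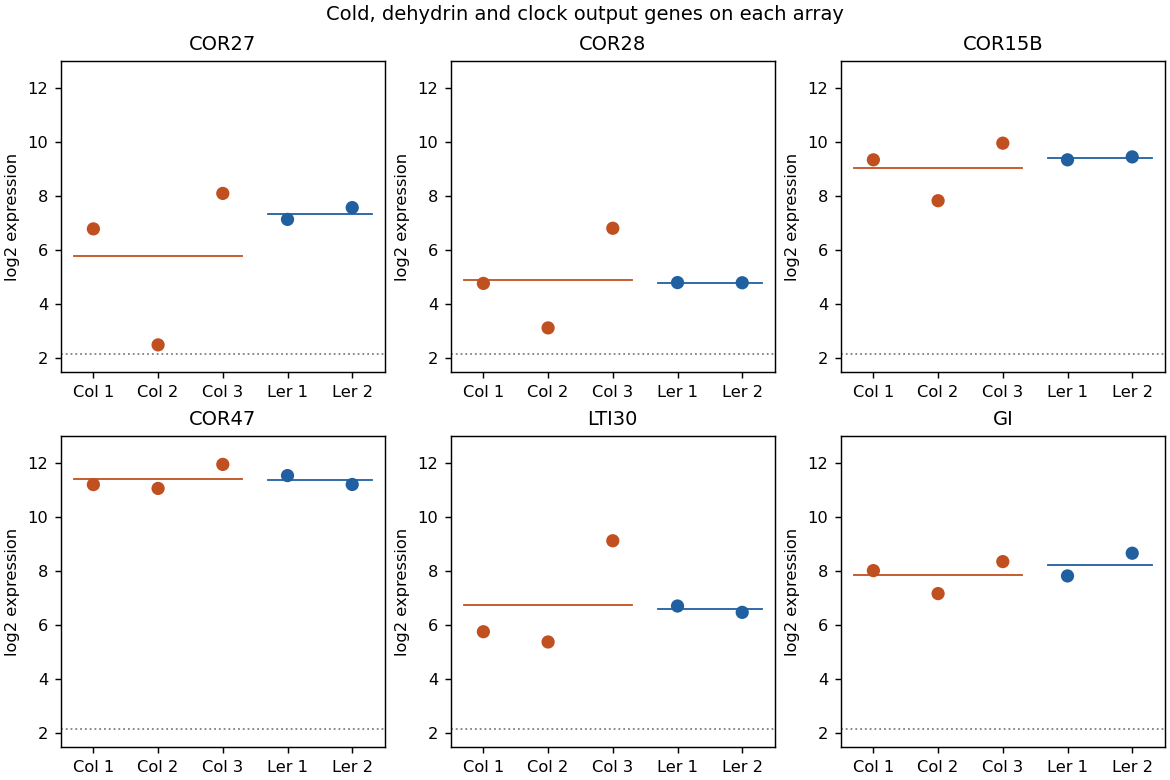
Log2 expression of the 6 genes on each array, with Columbia (Col, orange, 3 arrays) left of Landsberg erecta (Ler, blue, 2 arrays). Points are arrays, horizontal lines are ecotype means and the dotted line is the shared minimum of 2.15. Columbia replicate 2 is the lowest point in all 6 panels, and Columbia replicate 3 the highest in all but that of GI.

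COR27 had the widest range of all 22746 probe sets. Its log2 value was 6.79, 2.50 and 8.10 on Columbia replicates 1 to 3, against 7.14 and 7.58 on Landsberg erecta replicates 1 and 2. Columbia replicate 2 was low, and the other 4 arrays lay within 1.31 of each other. The range of 5.60 corresponds to a 48.7-fold difference between Columbia replicates 3 and 2 as deposited. On Columbia replicate 2 the gene was 4.86 below the median of the other arrays (29.1-fold), the most distant low value of any probe set on that array. That value lay 0.35 above the shared minimum, with 34.0% of all values on the array as low or lower. It was not shown to be above background, so neither fold is exact. Columbia replicate 3 also met the criterion, at 1.14 above the median of the other arrays, where it ranked 151st among all probe sets on that array.

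COR28, the relative of COR27, moved on both arrays by similar amounts. Its log2 value was 4.77, 3.13 and 6.81 across Columbia replicates 1 to 3, against 4.80 on both arrays of Landsberg erecta. Columbia replicate 1 and the Landsberg erecta arrays spanned 0.03, with replicate 2 below and replicate 3 above them. Columbia replicate 3 was 2.03 above the median of the other arrays (4.08-fold) and Columbia replicate 2 was 1.67 below it (3.19-fold). The value on Columbia replicate 2 lay 0.98 above the shared minimum, with 37.5% of all values on the array as low or lower, so the downward distance and its fold are not exact. COR28 was assigned to Columbia replicate 3 from the deposited values, by a small margin that rests on that low value. Of the 22746 probe sets, 25 (0.110%) met the criterion as low on Columbia replicate 2 and as high on Columbia replicate 3, and COR27, COR28 and LTI30 were 3 of them.

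COR15B was low on Columbia replicate 2. Its log2 value was 9.35, 7.83 and 9.96 across Columbia replicates 1 to 3, against 9.35 and 9.45 on the Landsberg erecta pair. The value of Columbia replicate 1 was identical to that of Landsberg erecta replicate 1. Columbia replicate 2 was 1.57 below the median of the others (2.96-fold). Columbia replicate 3 was the highest array by 0.51, and its distance of 0.62 from the median was under the criterion.

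The dehydrin genes were highest on Columbia replicate 3, by unequal amounts. LTI30 had log2 values of 5.76, 5.38 and 9.13 across Columbia replicates 1 to 3, against 6.71 and 6.48 on the Landsberg erecta pair. Columbia replicate 3 lay 3.01 above the median of the other arrays (8.04-fold), the 2nd largest distance upward of any probe set on that array. Columbia replicate 1 was only 0.38 above replicate 2, and both were under the Landsberg erecta arrays. Columbia replicate 2 also met the criterion, at 1.21 below the median of the others.

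COR47 had log2 values of 11.21, 11.07 and 11.95 across Columbia replicates 1 to 3, against 11.54 and 11.21 on the Landsberg erecta pair. Columbia replicate 3 was again the highest and Columbia replicate 2 the lowest, but all 5 arrays lay within 0.89 (1.85-fold). Its distance on Columbia replicate 3, 0.74, was the nearest to the criterion from outside, and that of GI on Columbia replicate 2, 1.02, the nearest from inside. COR47 ranked 1584th by range over the arrays, against 15th for LTI30, 16th for COR28, 158th for COR15B and 418th for GI.

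GI differed from the other 5 genes in its order of arrays. Its log2 value was 8.03, 7.18 and 8.36 across Columbia replicates 1 to 3, against 7.83 and 8.67 on the Landsberg erecta pair. Columbia replicate 2 was the lowest, and Landsberg erecta replicate 2 rather than Columbia replicate 3 was the highest. The Landsberg erecta arrays were 0.84 apart, a step reached by 1.02% of all probe sets between these arrays. The other 5 genes had steps of at most 0.44 there. Without Landsberg erecta replicate 2 or without Columbia replicate 3, the distance of Columbia replicate 2 was -0.85 and GI no longer met the criterion.

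**Figure D2:**
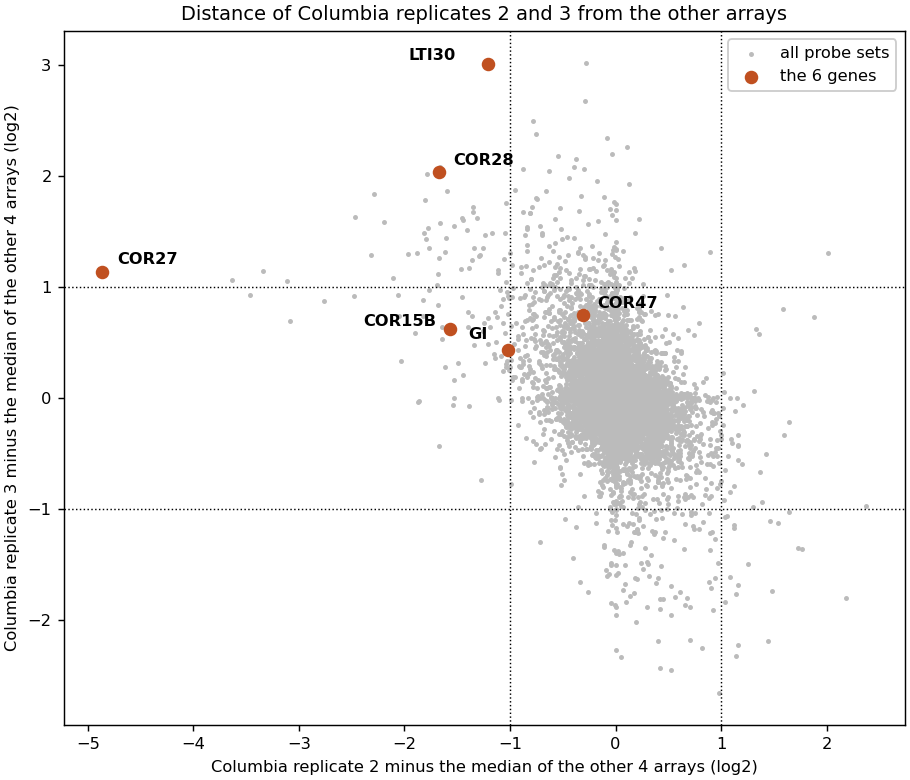
Distance of Columbia replicate 2 (horizontal axis) and of Columbia replicate 3 (vertical axis) from the median of the other 4 arrays, in log2 units, for all probe sets (grey) and the 6 genes (orange). Dotted lines mark a distance of 1 in either direction. COR27 lies farthest left at -4.86, LTI30 near the top at 3.01, and COR28 in between at -1.67 and 2.03.

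The steps between Columbia arrays restate these values against Columbia replicate 1. Columbia replicate 2 minus replicate 1 was -4.29 for COR27, -1.65 for COR28, -1.51 for COR15B, -0.85 for GI, -0.38 for LTI30 and -0.14 for COR47. Columbia replicate 3 minus replicate 1 was 3.37 for LTI30, 2.04 for COR28, 1.31 for COR27, 0.75 for COR47, 0.62 for COR15B and 0.33 for GI. The order of the genes was thus different on the 2 arrays, with COR27 first on one and LTI30 first on the other. Each step compares single arrays, so it has no error of its own.

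The median range of the 6 genes was 2.91, against 0.37 for the 16428 probe sets that varied. The 99th percentile of those was 2.10, which COR27, LTI30, COR28 and COR15B passed. The genes were selected on this movement, so their wide ranges restate the selection. Without Columbia replicate 2 the range of COR27 was 1.31 and that of COR15B 0.62, while LTI30 kept 3.37 and COR28 2.04. Without Columbia replicate 3 the range of LTI30 was 1.33, while COR27 kept 5.08. With neither of these arrays, the widest range was 0.95, that of LTI30.

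No ecotype difference passed the test for any of the 6 genes. Differences were Columbia minus Landsberg erecta, fitted with limma over all 22746 probe sets with Benjamini-Hochberg adjustment. Of the 6 genes, 0 passed in either direction, and 0 at an unadjusted p under 0.05. The same fit called 0.0% of all probe sets higher and 0.0% lower, with 1.78% at an unadjusted p under 0.05. The ecotypes overlapped for all 6 genes, while 6.84% of all probe sets did not overlap. The genes were chosen for a wide spread between arrays, which also widens the intervals of this comparison.

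COR27 averaged 5.80 ± 2.93 (SD, n = 3) for Columbia against 7.36 ± 0.31 (SD, n = 2) for Landsberg erecta. The difference was -1.56, and its 95% interval ran from -7.77 to 4.65 (limma adjusted p = 1). The interval is wide enough to hold large differences in either direction. Without Columbia replicate 2 the difference was 0.09 (interval from -2.30 to 2.47), so its sign turned with 1 array. COR15B turned in the same way, with a difference of -0.35 (interval from -2.67 to 1.96) over all arrays and 0.25 without Columbia replicate 2.

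For LTI30, COR28 and COR47 the sign turned without Columbia replicate 3, whereas COR27 and COR15B kept theirs, at -2.72 and -0.81. LTI30 averaged 6.76 ± 2.06 (SD, n = 3) for Columbia against 6.60 ± 0.17 (SD, n = 2) for Landsberg erecta, with an interval of the difference from -4.20 to 4.52. Without Columbia replicate 3 its difference was -1.02, with an interval from -1.79 to -0.25 and a limma adjusted p of 1. COR28 had a difference of 0.10 (interval from -3.80 to 4.01) over all arrays and -0.85 without Columbia replicate 3. COR47 had 0.03 (interval from -1.03 to 1.099) and -0.24. None of the 6 passed the adjusted test with any array left out.

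GI averaged 7.85 ± 0.61 (SD, n = 3) for Columbia against 8.25 ± 0.59 (SD, n = 2) for Landsberg erecta. The difference was -0.40, and its interval ran from -1.96 to 1.17 (limma adjusted p = 1). It was -0.06 without Columbia replicate 2, -0.82 without Landsberg erecta replicate 1 and 0.025 without Landsberg erecta replicate 2, so its sign turned with 1 array. The median difference of the 6 genes was -0.16, with 3 below 0 and 3 above, and the median of all probe sets was 0. The median of the 6 was 0.23 without Columbia replicate 2 and -0.83 without Columbia replicate 3. The Columbia SDs (n = 3) were 1.85 for COR28, 1.096 for COR15B, 2.06 for LTI30 and 0.48 for COR47. Those of Landsberg erecta (n = 2) were 0.0046, 0.077, 0.17 and 0.23 for the same genes. Because the genes were selected on movement between single arrays, these SDs do not show that Columbia varies more.

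**Figure D3:**
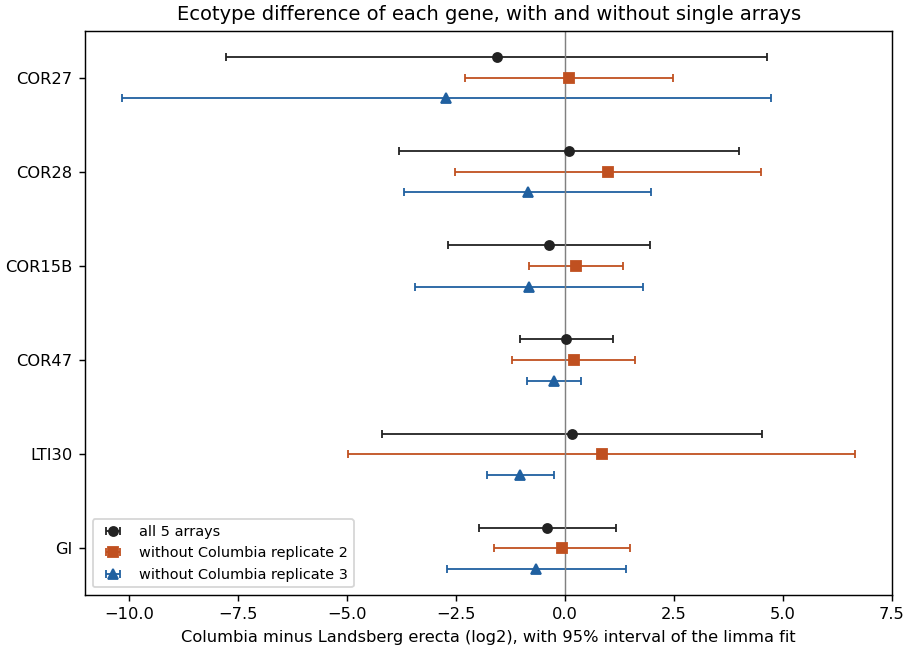
Difference between the ecotype means (Columbia minus Landsberg erecta, log2) of the 6 genes with the 95% interval of the limma fit, for all 5 arrays (circles), without Columbia replicate 2 (squares) and without Columbia replicate 3 (triangles). Every interval over all arrays includes 0, and the points of 5 genes lie on opposite sides of 0 in at least 2 of the fits.

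Genes of similar profile were found by the root mean square difference in log2 over the 5 arrays, after each probe set was centred on its own mean. The 5 nearest named genes were taken for each of the 6. AT5G62360 was nearest to COR27, at 0.47, with values of 8.67, 5.31 and 9.82 across Columbia replicates 1 to 3, against 8.86 and 9.04 on the Landsberg erecta pair. AT1G07050, AT4G16146, AT1G56300 and AT4G32340 followed at 0.66 to 0.93. All 5 stood apart on Columbia replicate 2, with smaller steps than COR27 in the deposited values. AT1G07050 held the shared minimum of 2.15 on that array, so the size of its step is not exact. AT1G11210 was nearest to COR28, at 0.22, and had 5.78, 3.93 and 7.19 across Columbia replicates 1 to 3, against 5.71 on both arrays of Landsberg erecta. The next were AT2G39920, AT4G32340, AT3G62550 and AT5G35735, at up to 0.44. AT4G32340 was thus shared by COR27 and COR28.

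COR15B had close companions: AT4G30650 at 0.10, AT1G53035 at 0.11, AT5G38510 at 0.14, AT3G15630 at 0.20 and AT5G14550 at 0.21, all of them apart on Columbia replicate 2. AT4G30650 had 11.20, 9.72 and 11.74 across Columbia replicates 1 to 3, against 11.21 and 11.52 on the Landsberg erecta pair. For LTI30 the nearest were AT3G19550 at 0.47, COR28 at 0.48, AT5G35960 at 0.48, AT5G40020 at 0.53 and AT3G54040 at 0.56. All of these stood apart on Columbia replicate 3, and, except for COR28, they were lowest on Columbia replicate 1 rather than 2. AT3G19550 had 4.63, 5.24 and 7.70 across Columbia replicates 1 to 3, against 6.19 and 6.04 on the Landsberg erecta pair.

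COR47 was most like AT5G42860 (0.06), AT3G48185, AT4G16190, EULS3 (0.07 each) and AT4G38690 (0.09), none of which stood apart on any array. GI was most like AT2G25730 (0.12), AT1G48330 (0.18), AT3G05130 (0.18), AT2G28720 (0.19) and AT1G21670 (0.19). All 5 were lowest on Columbia replicate 2 and highest on Landsberg erecta replicate 2, as GI was. Small differences come more easily to genes with small ranges, so these distances are not comparable between COR27 and COR47. Of the 29 probe sets named as nearest to any of the 6, 24 were lowest on Columbia replicate 2 and 24 were highest on Columbia replicate 3. The measure of likeness fixes such counts, so they describe the profiles only.

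**Figure D4:**
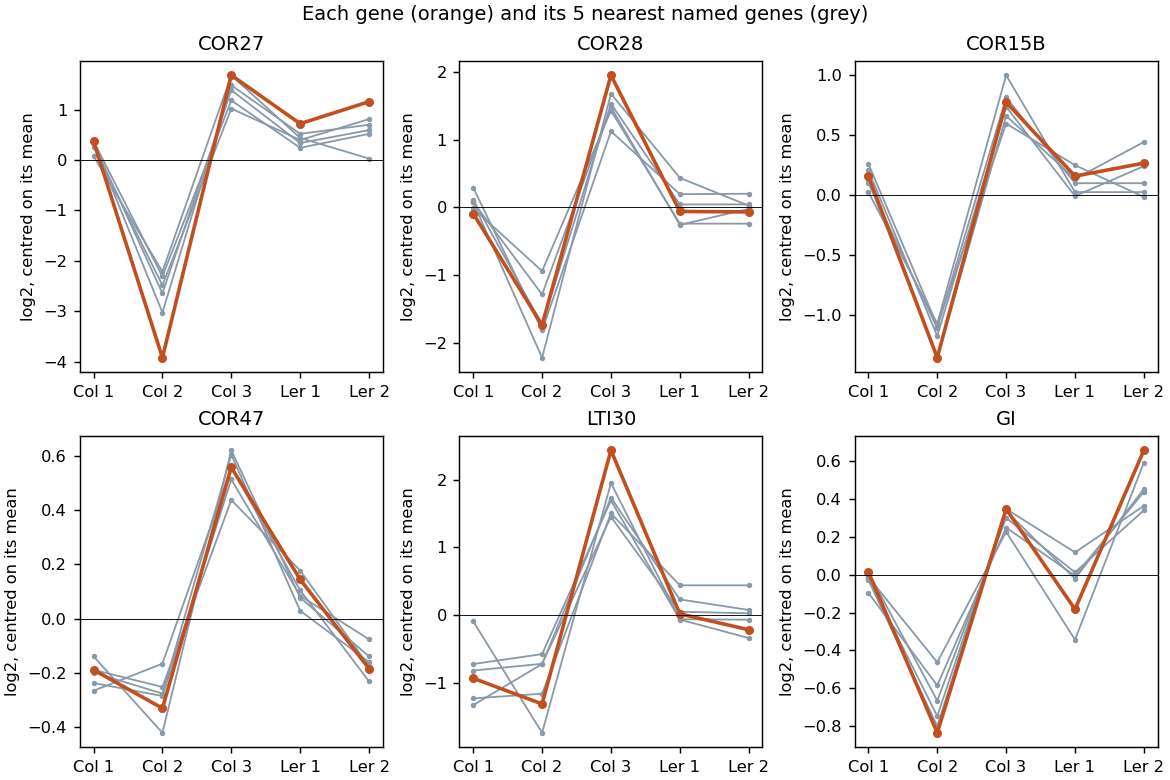
Log2 values centred on each probe set's mean over the 5 arrays, for each of the 6 genes (orange) and its 5 nearest named genes (grey), on Columbia (Col) and Landsberg erecta (Ler) arrays. Lines only join the values of a gene, since arrays have no order, and the vertical scales differ. COR27 and COR15B dip on Columbia replicate 2, LTI30 peaks on Columbia replicate 3, and GI is highest on Landsberg erecta replicate 2.

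Among the 15 pairs of the 6 genes, COR15B and GI had the smallest root mean square difference, 0.39, followed by COR28 and LTI30 with 0.48 and COR47 and GI with 0.48. COR27 was far from all others, from 1.20 for COR28 to 1.82 for COR47. The measure grows with the size of the steps, and COR27 had the widest range. Its distances therefore do not by themselves show an unlike pattern over the arrays. They also depend on its value near the shared minimum on Columbia replicate 2. By this measure COR28 was nearer to the dehydrin gene LTI30 than to COR27, to which its protein is related.

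Genes beside the 6 on the chromosome were compared as well, a choice made after the values were seen, with order taken from the RefSeq annotation of assembly TAIR10.1. A gene counts as measured here and below when a probe set is annotated to it alone. Of the 24 protein-coding genes within 2 positions on either side, 11 were measured. Of these, AT4G33985, AT4G33960 and COR15A (3 genes) were lowest on Columbia replicate 2 and highest on Columbia replicate 3. That pattern held for 3.16% of all probe sets, and for 18.9% of those with a range of at least 1. AT4G33985, the next gene after COR28, had log2 values of 5.30, 4.36 and 6.46 across Columbia replicates 1 to 3, against 5.38 and 5.22 on the Landsberg erecta pair. It was apart on Columbia replicate 3, at 1.20 above the median of the others, and 0.98 below it on Columbia replicate 2. AT4G33960, on the other side of COR28, had 6.64, 6.16 and 7.59 across Columbia replicates 1 to 3, against 6.83 and 6.59 on the Landsberg erecta pair. AT4G33970, which lies between them, held the shared minimum on all 5 arrays. The annotation shows no overlap of COR28 with any of the 3.

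COR15A, the gene next to COR15B, encodes a closely related chloroplast protein. It had 10.59, 9.81 and 10.87 across Columbia replicates 1 to 3, against 10.36 on both arrays of Landsberg erecta, in the same direction as COR15B on Columbia replicates 2 and 3. Its distances of -0.66 and 0.51 were below the criterion. Transcripts of such close relatives can bind each other's probes, so how much of the likeness belongs to each gene is uncertain. AT2G42520, which overlaps COR15B on the other side, varied by 0.43 and was lowest on Landsberg erecta replicate 2. The measured neighbours of COR47 and GI had ranges of 0.46 to 0.60, and those of COR27 and LTI30 held the shared minimum.

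**Figure D5:**
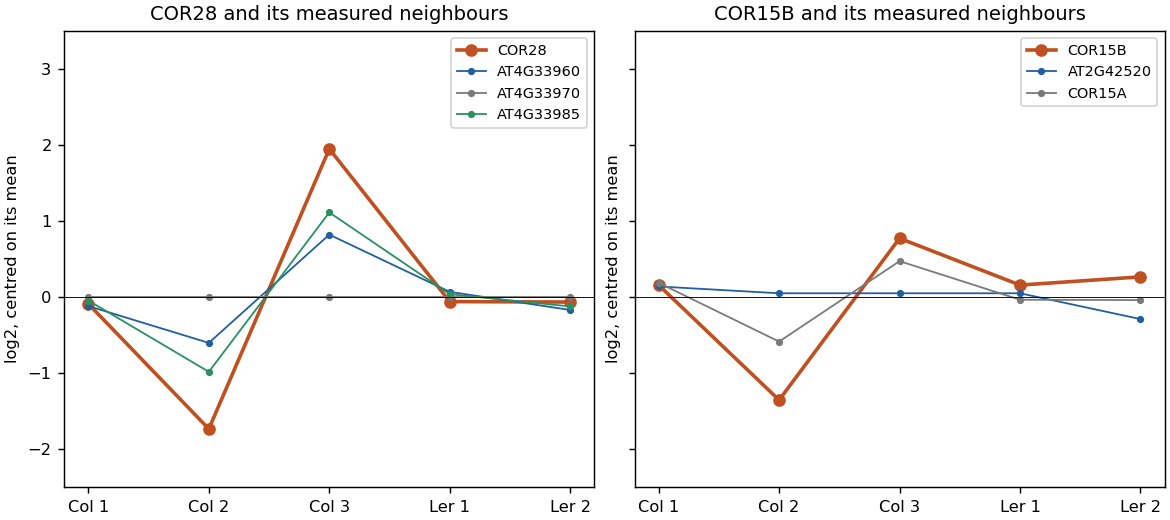
Log2 values centred on each probe set's mean over the 5 arrays, for COR28 (left) and COR15B (right) in orange and for their measured neighbours in other colours. Lines only join the values of a gene. AT4G33960 and AT4G33985 dip on Columbia replicate 2 and peak on Columbia replicate 3 as COR28 does, AT4G33970 is flat at the shared minimum, and COR15A follows COR15B with smaller steps.

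Other genes of these pathways were mostly unnamed on the array. Of 115 genes in 7 lists of the clock, clock output, light signalling, cold regulators, cold-induced targets, dehydrins with related LEA proteins, and abscisic acid or dehydration response, 8 were measured. Of these, 0 passed limma in either direction, as for all probe sets, and 0 stood apart on any array. Among all probe sets, 97.5% stood apart on no array, so this is not read as a result about the 8 genes. The list of abscisic acid and dehydration response had 0 measured genes out of 36, and the CBF genes themselves were not analysed here. Genes not counted as measured had no probe set annotated to them alone, and probe sets left unnamed may still read them.

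RVE6, a clock transcription factor gene, was the measured member of the core clock list out of 21. It had 5.72, 5.75 and 5.48 across Columbia replicates 1 to 3, against 5.72 on both arrays of Landsberg erecta, so it was lowest on Columbia replicate 3. CDF5, which encodes a repressor of flowering under clock control, had a range of 0.42. HYH, a light signalling transcription factor gene, had 5.60, 6.71 and 5.83 across Columbia replicates 1 to 3, against 5.86 on both arrays of Landsberg erecta. It was highest on Columbia replicate 2, opposite to the 6 genes, by 0.86 over the median of the others.

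STZ, a zinc finger gene of cold and stress response, lay at most 0.19 above its lowest value of 2.15. HIRD11, a small dehydrin gene, had 13.10, 12.95 and 13.38 across Columbia replicates 1 to 3, against 13.15 and 12.83 on the Landsberg erecta pair. It was highest on Columbia replicate 3, as were LTI30 and COR47, with a distance of 0.35. LEA and LEA4-5 were at or near the shared minimum. A search of gene names for words such as cold, drought, dehydrin and circadian, made after the values were seen, found 14 measured genes besides the 6. Of these, COR15A alone was lowest on Columbia replicate 2, and 3 were highest on Columbia replicate 3 (COR15A, HIRD11 and LEA26). A constant value was held by 4, and 0 stood apart on any array. Among all 22746 probe sets, 9.71% were lowest on Columbia replicate 2 and 15.3% highest on Columbia replicate 3. Of the same probe sets, 6318 held a constant value and 97.5% stood apart on no array. The counts over the 14 are therefore not read as a result about these genes. DI21, a drought-induced gene, went the other way on Columbia replicate 3, with 8.10, 7.56 and 7.08 across Columbia replicates 1 to 3, against 7.56 and 7.45 on the Landsberg erecta pair.

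Anther markers moved on Columbia replicate 3, and no measured tissue marker stood apart on Columbia replicate 2. All 3 measured anther markers out of 5, the tapetum and anther genes AMS, EMS1 and A9, stood apart as low on Columbia replicate 3. Of all 22746 probe sets, 135 stood apart as low on that array. The lists were chosen with earlier results of these data known, so the count of anther markers is a description only. None of the 3 markers was at the shared minimum on any array. Their summed log2 level was 15.75 on that array, 20.65 and 20.93 on Columbia replicates 1 and 2, and 19.80 and 22.01 on the Landsberg erecta arrays. IRX10, a xylan synthesis gene active where secondary walls form and the measured stem marker out of 5, had 5.79, 6.88 and 8.27 across Columbia replicates 1 to 3, against 7.68 and 8.01 on the Landsberg erecta pair. It was apart as low on Columbia replicate 1 and was highest on Columbia replicate 3. The summed level of RCA and LHCB4.1, the green tissue markers, lay between 28.39 and 28.45 on the Columbia arrays and at 28.13 and 27.98 on the Landsberg erecta arrays. The part of these tissues in the values of the 6 genes was not tested.

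Of the controls that read RNA quality, the log2 ratio of the 3 prime to the 5 prime GAPDH control was 0.89, 0.92 and 0.98 across Columbia replicates 1 to 3, against 1.25 and 1.22 on the Landsberg erecta pair. The corresponding ubiquitin ratio was lowest on Columbia replicate 2, 0.73, and highest on Columbia replicate 3, 0.94, with 0.88 on Columbia replicate 1 and 0.90 and 0.85 on the Landsberg erecta arrays. The actin ratio was -0.35, -0.33 and -0.34 across Columbia replicates 1 to 3, against -0.17 and -0.33 on the Landsberg erecta pair. The ubiquitin ratio had the same lowest and highest array as 5 of the genes, whereas the GAPDH and actin ratios were lowest on Columbia replicate 1 and highest on Landsberg erecta replicate 1. The 25S ribosomal RNA control had 7.77, 8.11 and 8.17 across Columbia replicates 1 to 3, against 7.16 and 6.53 on the Landsberg erecta pair. The part of RNA quality in the values of the 6 genes was not tested.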

How the data were processed

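Expression was measured on 5 Affymetrix arrays, 3 of Columbia and 2 of Landsberg erecta, from biotin-labelled cRNA made of 2 ug total RNA, per the labels' protocols. From their range of 2.15 to 15.13, the values as deposited are log2 expression. The authors' background correction, normalization and summary of probes are not given in the sources used here. Of 22810 probe sets, 64 controls were left out. The platform annotation listed 13513 probe sets with 1 gene, of which 13436 matched RefSeq (TAIR10.1). The 503 with several genes and 8794 without an entry were not named.

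Ecotype differences were fitted by limma's lmFit and eBayes (version 3.58.1, under R version 4.3.3) over the 22746 others, using all 5 arrays and neither a covariate nor a filter. Calls needed a Benjamini-Hochberg adjusted p under 0.05. The fit was also run on simulated data with added changes, where the only requirement was that their direction be mostly recovered. That run is not read as a check of the calls. Distances, ranges and profile likeness were computed in Python 3.11.15, and figures drawn with matplotlib 3.10.9. Named genes were the 6, the 5 nearest to each, and list members that stood apart or, with none, the one with the widest range. RCA, LHCB4.1, CLV3, LAS, LEA, LEA4-5 and DI21 were named after their values were seen. Alternatives were quantile normalization, equal array medians, filters, a trend, array weights, left-out arrays, a replicate block and other distances. The genes and lists were chosen with earlier results of these data known. No sequences of the genes were used here.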

Additional observations from a re-analysis of the deposited data

How the results depend on the processing

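No probe set was called higher or lower in Columbia (0 and 0) with quantile normalization, equal array medians, either filter, a trend, array weights or the replicate number as a block. At an unadjusted p under 0.05 the counts were 265 and 141. Leaving out each array in turn gave 0 to 356 and 0 to 658. Calls came only without Landsberg erecta replicate 1 or 2, where the lone array of that ecotype is taken to vary as Columbia does, and none was among the 6 genes. Same-numbered arrays deviated from their ecotype means with correlations of -0.03 and 0.08 over the probe sets that varied, so the numbers were not read as pairs. With the replicate block, which takes Columbia replicate 3 out of the ecotype difference, COR28, COR47 and LTI30 turned to -0.85, -0.24 and -1.02. With array weights they turned to -0.20, -0.050 and -0.19, and the cause was not tested. When each array was left out, the difference ranged from -2.72 to 0.087 for COR27, -0.85 to 0.99 for COR28, -0.81 to 0.25 for COR15B, -0.24 to 0.20 for COR47, -1.02 to 0.85 for LTI30 and -0.82 to 0.025 for GI. The 3 genes apart on Columbia replicate 2 and 2 on Columbia replicate 3 were the same under both normalizations. The number apart on no array was 0 with a distance of at least 0.5, which put COR47 with Columbia replicate 3, and 2 when 1 was asked from the nearest other array, which dropped GI. Leaving out each array, it was between 1 and 4. The median difference of the 6 genes was 0.23 without Columbia replicate 2 and -0.83 without Columbia replicate 3. Without Columbia replicate 3, COR28 and LTI30 stood apart on Columbia replicate 2. The filter on dim probe sets removed COR28, and averaging the probe sets of a gene changes nothing where each gene has 1.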

Other observations

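The 25 probe sets that met the criterion as low on Columbia replicate 2 and as high on Columbia replicate 3 included 11 with a named gene. Besides COR27, COR28 and LTI30 and 5 of the genes nearest to COR27 or COR28, these were AT3G59350, AT1G07280 and AT1G10140, named after their values were seen. AT3G59350 was 1.11 below the median of the other arrays on Columbia replicate 2 and 1.12 above it on Columbia replicate 3. AT1G07280 was 1.00 below and 1.31 above, and AT1G10140 was 1.46 below and 1.16 above. By distance on Columbia replicate 3, LTI30 led the 25, and by distance on Columbia replicate 2, COR27 did.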
